A study of Homo sapiens with 22 samples.

Results

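The genes described here encode the nuclear part of the mitochondrial respiratory chain and the ATP synthase. They were chosen by gene symbol alone, as probes whose single symbol began with NDUF, SDHA to SDHD, UQCR, COX4 to COX8 or ATP5, or was CYC1, and they were sorted into complexes I to V and assembly factors. Of 14257 probes in the series, 70 met this rule, and they stand for 67 genes. In Mia-PaCa-2 66 of these genes were measured, 26 of complex I, 2 of complex II, 5 of complex III, 10 of complex IV, 15 of complex V and 8 assembly factors. In SK-MEL-28 12 were measured, and 11 were measured in both lines.

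Complexes I and II take electrons from NADH and succinate and pass them to ubiquinone, complex III hands them on to cytochrome c, and complex IV passes them to oxygen. Complexes I, III and IV pump protons across the inner mitochondrial membrane, and complex V, the ATP synthase, lets them flow back to make ATP. Most subunits are encoded in the nucleus, a small number of core subunits is encoded in mitochondrial DNA, and assembly factors help to build the complexes without staying in them. Tumour cells in culture make ATP through this chain and through glycolysis.

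RNA was read on CodeLink arrays of the human genome, 1 sample to each array. Mia-PaCa-2, a line from a pancreatic carcinoma, was given 1 µM Amblyomin-X for 4 h (6 arrays) or left untreated (6 arrays). SK-MEL-28, a line from a melanoma, was given the same dose for the same time (5 arrays) or left untreated (5 arrays). Amblyomin-X is a recombinant inhibitor of the Kunitz type from a tick. All cells grew in RPMI 1640 with fetal bovine serum, and the arrays of a group came from independent cRNA preparations of an established line. The sources used here do not say whether separate cultures were used, so the p-values cover only the spread between these arrays, which may be technical. In bulk samples such as these, fewer expressing cells and less RNA per cell cannot be told apart.

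Median intensities before normalization lay between 68.1 and 156 for the 12 Mia-PaCa-2 arrays, and between 55.4 and 165 for the 10 SK-MEL-28 arrays. In Mia-PaCa-2 untreated arrays 4 and 5 stood apart, as did treated arrays 3 and 5 in SK-MEL-28. Across 5195 probes they correlated with each other between the lines by 0.864 to 0.962, whereas the remaining arrays of different lines correlated by 0.357 to 0.471. They were noticed in the values, not in the labels, so changes and their medians are also given without them. Of 8 ductal markers 5 were measured in Mia-PaCa-2, 1 with a positive and 4 with a negative change (median -0.41, and -0.78 without untreated arrays 4 and 5), and 0 had an adjusted p under 0.05 in limma. The keratin KRT18 had a mean log2 level of 13.64 ± 0.34 in treated and 13.26 ± 0.33 in untreated cells (SD, n = 4 each, since 2 arrays of each group had no value). The mucin MUC1 had 6.20 ± 0.33 in treated and 7.13 ± 0.45 in untreated cells (SD, n = 6 each), a change of -0.93, and KRT8, KRT19 and CLDN4 had -0.52, -0.41 and -0.36. The part of these markers in the results below was not tested. None of 9 melanocyte markers was measured under a single symbol in either line, so the label of SK-MEL-28 could not be checked in this way. Of 4 fibroblast and 4 leukocyte markers, COL1A1 was the 1 measured in Mia-PaCa-2 (6.08 ± 0.21 in treated and 6.08 ± 0.25 in untreated cells, SD, n = 6 each).

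The first comparison asked whether 4 h of Amblyomin-X altered the RNA of these genes in Mia-PaCa-2. No gene of any complex passed the test. Changes are given as treated minus untreated on the log2 scale, from the authors' normalized intensities. The change was positive in 49 of 66 genes and negative in 17, and its median was 0.19. Over all 11604 probes tested the share with a positive change was 51.2% and the median was 0.01. With limma and Benjamini-Hochberg adjustment over all probes, 0 of the 66 genes had an adjusted p under 0.05 (background 0.0% of all probes), and the smallest adjusted p among them was 0.501. At an unadjusted p under 0.05, 5 genes were higher and 0 lower, against a background of 5.19% higher and 4.4% lower. In none of the 66 genes were the groups free of overlap (background 0.543%).

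Without untreated arrays 4 and 5 the median over the genes was 0.05, with 37 positive and 29 negative changes. The share of all probes with a positive change was then 50.6% and their median was 0.00. No gene had an unadjusted p under 0.05 (background 2.96% higher and 2.52% lower), and the smallest adjusted p was 0.884. The sign stayed positive for 35 genes and negative for 15, while 14 turned negative and 2 turned positive. For 49 of the 66 genes the change was smaller in size without these arrays.

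**Figure D1:**
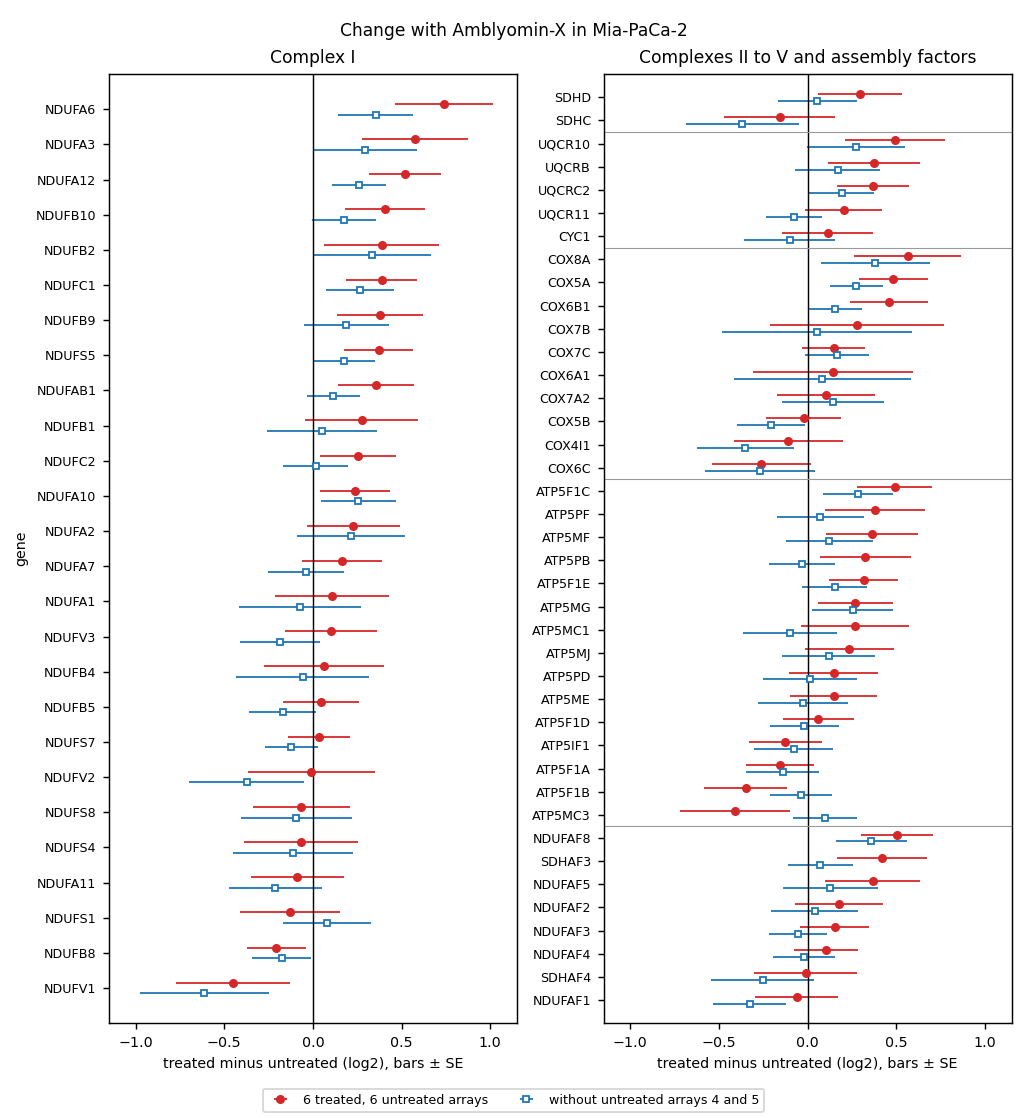
Treated minus untreated change of each gene in Mia-PaCa-2 (log2, x axis), as limma's estimate ± its standard error, with complex I on the left and the other complexes and the assembly factors on the right. Filled red circles use all 12 arrays and open blue squares leave out untreated arrays 4 and 5; the median over the genes was 0.19 with all arrays and 0.05 without these arrays.

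In complex I, which is built around a small set of redox subunits with many accessory subunits, 19 of 26 genes had a positive change and 7 a negative one. The median was 0.19, and 0.03 without untreated arrays 4 and 5. The accessory subunit NDUFA6 had the largest change of all 66 genes. Its log2 levels were 8.61, 8.41, 8.73, 9.39, 8.65 and 8.43 on treated arrays 1 to 6, against 8.52, 8.33, 7.99, 7.12, 7.27 and 8.56 on untreated arrays 1 to 6. The groups overlapped, and untreated arrays 4 and 5 held the lowest levels. The change was 0.74 ± 0.28 (SE, limma adjusted p = 0.501), and 0.35 ± 0.21 without those arrays. NDUFA12, another accessory subunit, showed a similar layout, with 10.09, 10.01, 9.75, 9.92, 9.76 and 10.12 on the treated arrays against 9.76, 9.53, 9.54, 8.96, 8.84 and 9.90 on the untreated arrays. Its change was 0.52 ± 0.21 (SE, limma adjusted p = 0.501), and 0.26 without untreated arrays 4 and 5. NDUFC1, a small membrane subunit, ranked next by p with 0.39 ± 0.20, and 0.27 without those arrays.

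The redox subunits of complex I, named by role, had smaller or negative changes than the subunits above, which were named by value. Some accessory subunits not named here also had small or negative changes, so no split between the kinds is read from these values. NDUFV1, which binds NADH and the flavin where electrons enter, had the lowest change of the complex. Its levels ran from 6.29 to 7.29 with a median of 6.55 on the treated arrays, against 6.15 to 8.24 with a median of 6.86 on the untreated arrays, where arrays 2 and 3 read 7.85 and 8.24. The change was -0.45 ± 0.32 with a 95% interval of -1.14 to 0.23, and -0.61 without untreated arrays 4 and 5. The iron-sulfur subunit NDUFS1 had a change of -0.13 ± 0.28, with no value on untreated array 4, and 0.081 ± 0.25 without arrays 4 and 5. NDUFS7 and NDUFS8, which carry iron-sulfur clusters on the way to ubiquinone, had changes of 0.03 ± 0.18 and -0.06 ± 0.28, and -0.12 and -0.094 without those arrays, so the sign turned for NDUFS1 and NDUFS7. NDUFV2, an iron-sulfur partner of NDUFV1, had -0.01 ± 0.36 by its brighter probe and 0.26 ± 0.19 by its dimmer one, and -0.37 and 0.33 without those arrays.

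Complex II feeds electrons from succinate, and 2 of its genes were measured, both for the membrane anchors that hold haem and bind ubiquinone. SDHD ran from 8.35 to 9.59 with a median of 9.16 on the treated arrays, against 8.34 to 9.18 with a median of 8.98 on the untreated arrays. SDHC ran from 6.62 to 7.82 with a median of 7.52 on the treated arrays, against 6.64 to 8.44 with a median of 7.48 on the untreated arrays. The groups overlapped in both genes. The changes were 0.30 ± 0.24 for SDHD and -0.16 ± 0.31 for SDHC, and 0.05 and -0.37 without untreated arrays 4 and 5. SDHA and SDHB are not analysed here.

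Complex III had the highest median of the complexes, 0.37, with a positive change in 5 of 5 genes. Without untreated arrays 4 and 5 it was 0.17, with 3 of 5 positive. UQCRC2, a core subunit on the matrix side, read 9.09, 9.32, 8.88, 9.41, 8.66 and 9.03 on the treated arrays against 9.16, 8.71, 8.68, 8.53, 8.16 and 8.94 on the untreated arrays. Its change of 0.37 ± 0.20 had the smallest p of the complex (limma adjusted p = 0.502), and it was 0.19 without untreated arrays 4 and 5. UQCR10, a small subunit, had the largest change, 0.49 ± 0.28, and 0.27 without those arrays. UQCRB, which lies by the ubiquinone site, had 0.38 ± 0.26, and 0.17. CYC1, the cytochrome c1 haem protein, had 0.11 ± 0.26, and -0.10 without untreated arrays 4 and 5. UQCR11 was read by a pair of probes, with changes of 0.20 and 0.38, which were -0.08 and 0.00 without those arrays.

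In complex IV, cytochrome c oxidase, 7 of 10 genes had a positive change both with and without untreated arrays 4 and 5, with medians of 0.14 and 0.11. COX5A, a structural subunit on the matrix side, had the smallest p. It read 9.94, 9.63, 9.63, 9.59, 9.86 and 9.69 on the treated arrays, against 9.63, 9.26, 9.33, 8.56, 9.09 and 9.59 on the untreated arrays. The treated levels were tight and the untreated ones reached up into them. The change was 0.48 ± 0.20 (SE, limma adjusted p = 0.501), and 0.27 ± 0.15 without untreated arrays 4 and 5. COX6B1, on the side facing cytochrome c, lay between 10.74 and 10.95 on all 6 treated arrays, against 11.00, 10.90, 10.42, 9.79, 9.89 and 10.65 on the untreated arrays. Its change of 0.46 ± 0.22 became 0.15 without untreated arrays 4 and 5. COX8A, the smallest subunit, had the largest change of the complex, 0.56 ± 0.30, and 0.38 without those arrays. COX6C had the lowest, -0.26 ± 0.28, and -0.27.

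The remaining complex IV genes had changes between -0.11 and 0.28, each with a 95% interval that held 0. COX4I1, a subunit through which ATP regulates the enzyme, had -0.11 ± 0.31, and -0.35 without untreated arrays 4 and 5. COX5B, the zinc-binding subunit, had -0.02 ± 0.21, and -0.21 without them. COX7C had 0.15 ± 0.18 with the smallest within-group SD of the complex, 0.238, and 0.17 without them. COX6A1 and COX7A2, the forms of their subunits found outside heart and muscle, had 0.14 ± 0.45 and 0.10 ± 0.27, and 0.082 and 0.14 without them. COX7B had 0.28, and 0.054. The 95% intervals of COX6A1 and COX7B reached from -0.82 to 1.10 and from -0.77 to 1.32, the widest among the genes of the complex.

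Complex V had 11 positive and 4 negative changes among 15 genes, with a median of 0.23, and 0.01 without untreated arrays 4 and 5. The 5 measured subunits of the F1 head and its central stalk differed among themselves. ATP5F1C, the gamma subunit that turns inside the head, had a lowest, median and highest level of 7.93, 8.48 and 8.83 on the treated arrays, against 7.47, 7.98 and 8.42 on the untreated arrays, where arrays 4 and 5 were lowest. The groups overlapped, and the change was 0.49 ± 0.21 (SE, limma adjusted p = 0.501), or 0.28 without untreated arrays 4 and 5. ATP5F1E and ATP5F1D, the epsilon and delta subunits of the stalk, had 0.32 ± 0.20 and 0.06 ± 0.20, and 0.15 and -0.018 without those arrays. ATP5F1A, the alpha subunit, had -0.16 ± 0.19, and -0.14.

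ATP5MC3 and ATP5F1B had the lowest changes of complex V. ATP5F1B is the beta subunit, which holds the catalytic sites. It read 9.92, 10.39, 10.33, 10.37, 9.86 and 10.13 on the treated arrays, against 10.18, 10.44, 10.32, 11.01, 11.27 and 9.88 on the untreated arrays. ATP5MC3 encodes subunit c, which forms the turning ring in the membrane. It read 11.13, 10.70, 10.39, 10.74, 10.38 and 10.39 on the treated arrays, against 10.52, 10.74, 10.38, 12.20, 11.88 and 10.47 on the untreated arrays. In both genes untreated arrays 4 and 5 were the highest of all 12. The changes were -0.35 ± 0.23 and -0.41 ± 0.31, and without those arrays they were -0.04 ± 0.18 and 0.10 ± 0.18. ATP5MC1, whose mature product is the same subunit c as that of ATP5MC3, had a change of 0.27 ± 0.31, and -0.10 without untreated arrays 4 and 5. ATP5PB of the peripheral stalk had 0.32 ± 0.26, and -0.03 without them. ATP5IF1, the inhibitor of the synthase, had -0.13 ± 0.21, and -0.078. ATP5MC2 and ATP5PO are not analysed here.

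**Figure D2:**
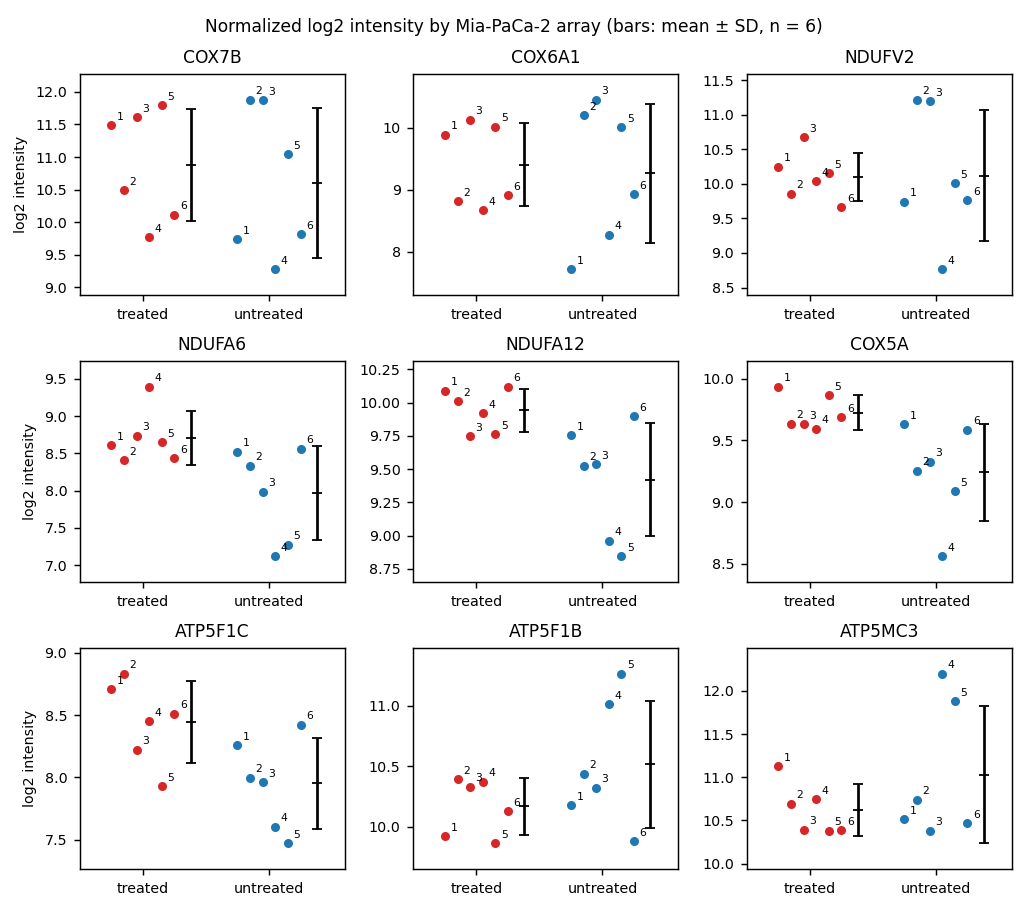
Normalized log2 intensity (y axis) of 9 genes on each Mia-PaCa-2 array, treated in red on the left and untreated in blue on the right, with the array number at each point and bars for the mean ± SD (n = 6). NDUFA6, NDUFA12, COX5A and ATP5F1C were lowest on untreated arrays 4 and 5, with COX5A at 8.56 and 9.09 there, while ATP5F1B and ATP5MC3 were highest there. COX7B and COX6A1 spread widely within both groups, and NDUFV2 within the untreated group.

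The change was positive in 6 of the 8 assembly factors, and their median was 0.16, and 0.01 without untreated arrays 4 and 5. NDUFAF8, a complex I factor that partners NDUFAF5, read 7.30, 7.15, 7.26, 7.25, 7.33 and 7.77 on the treated arrays, against 7.23, 6.59, 6.70, 6.61, 6.50 and 7.42 on the untreated arrays. Untreated arrays 1 and 6 lay among the treated ones and the other 4 lay below them. The change was 0.50 ± 0.20 (SE, limma adjusted p = 0.501), and 0.36 ± 0.20 without untreated arrays 4 and 5. NDUFAF5, which modifies NDUFS7 during assembly, had 0.37 ± 0.27, and 0.13 without these arrays. SDHAF3, which helps to mature the iron-sulfur subunit of complex II, had 0.42 ± 0.25, and 0.07. NDUFAF1, a factor for the membrane arm of complex I, had the lowest change of the factors, -0.06 ± 0.23, and -0.33.

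Untreated arrays 4 and 5 differed from the other 4 untreated arrays in most of these genes. Their mean was lower in 57 of 66 genes (86.4%, against 54.1% of all probes), and the median gap was -0.56, against -0.09 over all probes. Both arrays lay below each of the other untreated arrays in 26 genes (39.4%, against 23.6% of all probes). They lay above each of them in 3 of 66 genes, all of complex V, against 3105 of all 11604 probes. All 8 assembly factors and all 5 complex III genes were lower there. Array 4 was the lower for most genes. On it 9 genes were above their own mean over the 12 arrays, against 22 on array 5, and NDUFS1 had no value on array 4. These arrays are part of the untreated group, so the treated minus untreated values of these genes include that gap.

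**Figure D3:**
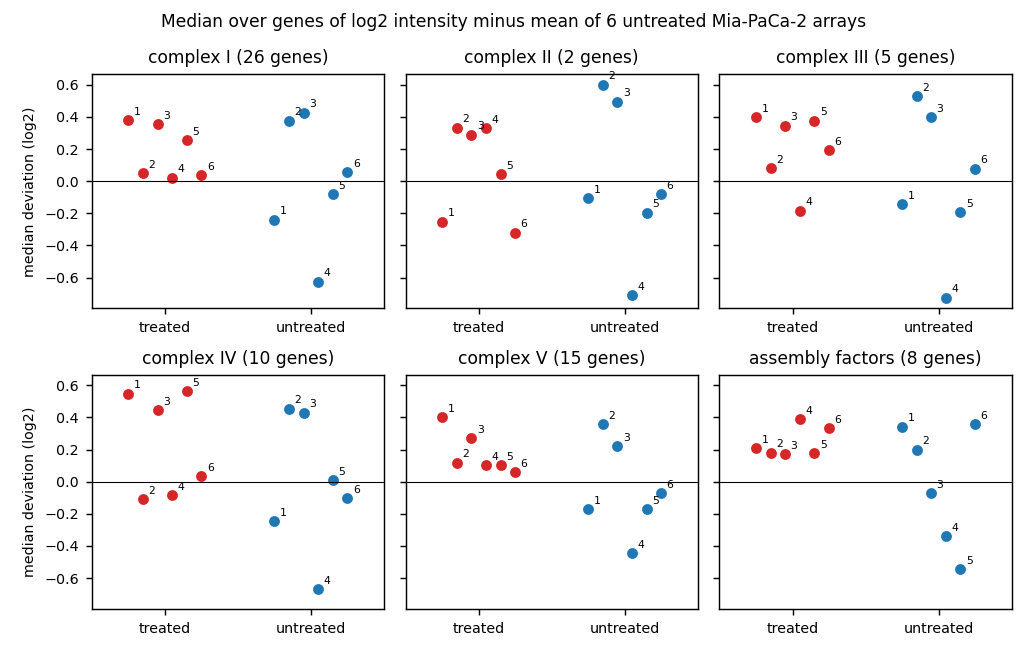
Median, over the genes of each complex, of the log2 intensity minus the mean of the 6 untreated Mia-PaCa-2 arrays (y axis), by array, with treated in red on the left and untreated in blue on the right. Untreated array 4 was the lowest array for complexes I to V, and for the assembly factors untreated array 5 was the lowest; treated and untreated arrays overlapped in every panel.

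Apart from treatment, the genes shared a pattern from array to array. The first principal component of the 65 genes with a value on every Mia-PaCa-2 array carried 53.2% of their variance, against 39.5% for the first component of all probes. It crossed the treatment groups. Its scores were 0.30, -0.09, 0.33, -0.18, 0.28 and -0.19 on treated arrays 1 to 6, and -0.39, 0.43, 0.40, -0.69, -0.04 and -0.17 on untreated arrays 1 to 6. COX7B, a small complex IV subunit, had 91.4% of its variance on it. It read 11.49, 10.49, 11.62, 9.77, 11.80 and 10.12 on the treated arrays, against 9.74, 11.88, 11.87, 9.27, 11.05 and 9.82 on the untreated arrays. Its high levels were on treated arrays 1, 3 and 5 and untreated arrays 2, 3 and 5. Its within-group SD of 1.01 was the largest among the 66 genes, whose median was 0.448, close to the 0.426 of all probes.

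Of the 65 genes from which this component was itself computed, 29 had over 50% of their variance on it, all with the same sign. They were 12 of 25 complex I genes, 1 of 2 complex II genes, 4 of 5 complex III genes, 6 of 10 complex IV genes, 6 of 15 complex V genes and 0 of 8 assembly factors. The genes with the largest share after COX7B were the complex V membrane subunit ATP5MJ (91.3%), the peripheral stalk subunit ATP5PF (88.3%), the complex I accessory subunit NDUFB4 (87.1%) and the peripheral stalk subunit ATP5PD (86.0%). COX6A1, with 81.3%, read 9.89, 8.82, 10.13, 8.67, 10.01 and 8.91 on the treated arrays, against 7.71, 10.20, 10.45, 8.28, 10.01 and 8.93 on the untreated arrays. NDUFV2, with 83.8%, was highest on untreated arrays 2 and 3 (11.22 and 11.19) and lowest on untreated array 4 (8.76).

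The second component carried 22.8% of the variance, against 17.4% for that of all probes, and its lowest scores were on untreated arrays 4 and 5 (-0.34 and -0.48). It held over 50% of the variance of 15 genes with the same sign and of 1, ATP5F1B, with the opposite sign. These were led by the complex I accessory subunit NDUFS5 (88.2%), SDHAF3 (87.0%), UQCRC2 (86.9%), NDUFA12 (84.6%) and NDUFA6 (77.7%), and they included 5 of the 8 assembly factors. All 5 genes with an unadjusted p under 0.05 were among the 15. The components describe these arrays and were not tested.

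**Figure D4:**
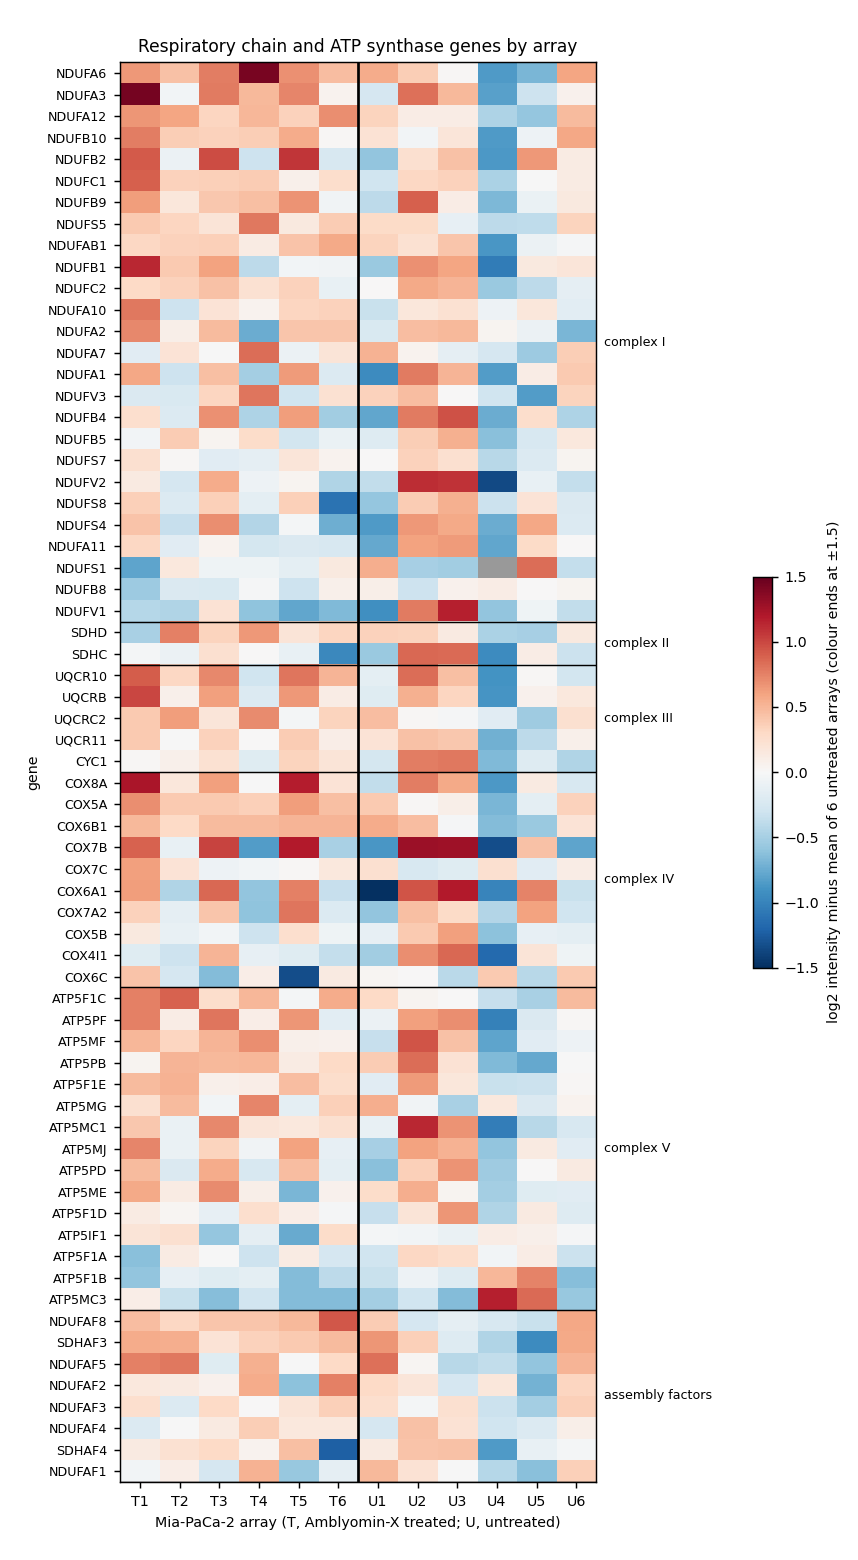
Log2 intensity of 66 genes (rows, by complex) on 6 treated (T1 to T6, left) and 6 untreated (U1 to U6, right) Mia-PaCa-2 arrays, as the difference from the gene's mean over the untreated arrays, in colour with the scale ending at ±1.5 and grey for no value. Untreated array 4 was low across complexes I to V, apart from a few genes with ATP5MC3 the highest of them, and red columns appear in both groups, on treated arrays 1, 3 and 5 and on untreated arrays 2 and 3.

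Promoters are shown for members of both array patterns, COX5B, COX6A1 and COX8A with over 50% of their variance on the first component and COX6B1 and ATP5F1C on the second. Each of them holds a match to the letters below, so they are examples and do not stand for the other members of their patterns. NRF1, the ETS family factor GABP and YY1 are nuclear factors known to bind promoters of respiratory genes. Sequences are from RefSeq, build GRCh38.p14, and cover the 100 bases before the start of each gene, 5′ to 3′ on the plus strand of the gene. Capitals mark the ETS letters CCGGAAG or their reverse complement, and in ATP5F1C the NRF1 letters CATGCGC, which overlap with their own reverse complement there. COX5B and COX6A1 also held the NRF1 letters, on either strand, before the stretch shown. They began 135 bases before the start in COX5B, and 217 and 174 bases before it in COX6A1.
COX5B (chr2:97645962-97646061, + strand): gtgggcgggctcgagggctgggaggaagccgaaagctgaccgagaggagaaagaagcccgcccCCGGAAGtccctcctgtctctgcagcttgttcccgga
COX6A1 (chr12:120438013-120438112, + strand): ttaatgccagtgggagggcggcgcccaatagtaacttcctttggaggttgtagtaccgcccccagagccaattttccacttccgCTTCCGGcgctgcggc
COX6B1 (chr19:35648223-35648322, + strand): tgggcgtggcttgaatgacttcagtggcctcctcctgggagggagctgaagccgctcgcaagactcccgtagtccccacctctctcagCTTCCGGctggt
COX8A (chr11:63974520-63974619, + strand): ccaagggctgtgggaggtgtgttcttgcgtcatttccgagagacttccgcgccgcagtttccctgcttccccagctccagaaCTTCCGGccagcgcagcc
ATP5F1C (chr10:7788077-7788176, + strand): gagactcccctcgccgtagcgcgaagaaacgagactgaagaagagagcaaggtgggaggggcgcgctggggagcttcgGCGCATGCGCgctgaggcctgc

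The 250 bases before the start were searched on both strands in the 55 of 67 genes with an entry. The letters CCGGAAG occurred in 12 of 55 promoters (21.8%), against 8.82% of all 27305 promoters of the same length. In complex IV they occurred in 4 of 9 promoters, in complex I in 2 of 22 (9.09%) and in complex V in 2 of 11 (18.2%). The assembly factors had 2 of 9, complex III 1 of 3 and complex II 1 of 1. In COX5B, COX6A1, COX6B1 and COX8A the match lay within 37 bases of the start, a distance not counted over all promoters. The letters CATGCGC (NRF1) occurred in 9 of 55 (16.4%, against 3.96% of all promoters), and on both strands at 1 place in ATP5F1C, NDUFB4 and SDHD. The letters AGATGGC (YY1) occurred in 1 of 55 (1.82%, against 3.40%), in ATP5PF. No match of 1 motif overlapped a match of another in these promoters. The motif letters were chosen after longer forms had been searched, so these shares are no test. A match of letters is a description of the sequence, and binding was not measured here.

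Genes around the chain were counted from lists outside the naming rule. Of 24 measured assembly genes with other names, 19 were positive. Their median was 0.23, and -0.03 without untreated arrays 4 and 5. COA8 and SCO1, both factors for complex IV, had 0.65 ± 0.26 and 0.51 ± 0.22, and 0.43 and 0.24 without them. Of 10 measured genes of the citrate cycle and pyruvate dehydrogenase, 4 had a positive and 6 a negative change. There the median was -0.06, and -0.13 without those arrays. CS, citrate synthase at the entry of the cycle, had -0.95 ± 0.44, and -0.22 without them, and SUCLA2, a subunit of succinyl-CoA ligase, had 0.69 ± 0.26, and 0.38. Of 7 genes of mitochondrial transcription and its regulators 4 were positive, and their median was 0.20, and -0.13 without those arrays. Of 5 genes for ADP/ATP and phosphate exchange 4 were positive, with a median of 0.26, and 0.15 without them. The 3 measured genes of electron delivery by the electron transfer flavoprotein, ETFA, ETFB and ETFDH, all had negative changes, and their median was -0.13, and -0.062 without those arrays. No gene of these lists had an adjusted p under 0.05 in limma.

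The same question was asked in SK-MEL-28, where 12 genes were measured. Of these 9 had a positive and 3 a negative change, with a median of 0.28, against a positive share of 42.6% and a median of -0.05 over all 7973 probes tested. With limma 0 of 12 had an adjusted p under 0.05 (background 0.0%), and 0.838 was the smallest. Before adjustment 2 genes were higher and 0 lower at p under 0.05 (background 2.53% higher and 3.06% lower). With the replicate number as a block there were 3 and 0 (background 4.67% higher and 6.08% lower). The groups overlapped in all 12 genes, where 1.2% of all probes had groups that did not. Without treated arrays 3 and 5, 11 genes could be tested, 4 of them positive and 7 negative (52.5% of all probes positive), and the median was -0.10. None had an unadjusted p under 0.05 (background 1.38% higher and 1.23% lower).

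NDUFV3, an accessory subunit next to the flavin site of complex I, had the largest change. It read 4.37, 6.15, 8.14, 5.76 and 7.67 on treated arrays 1 to 5, against 3.61, 3.52, 6.20 and 4.68 on untreated arrays 1, 2, 4 and 5, with no value on untreated array 3. Treated arrays 3 and 5 were above every other array and the other 3 treated arrays lay within the untreated range. The change was 1.92 ± 0.79 (SE, limma adjusted p = 0.838), and 0.93 ± 0.70 without treated arrays 3 and 5. SDHD read 6.06, 6.11, 8.39, 5.08 and 8.17 on the treated arrays, against 5.25, 4.41, 5.54, 5.77 and 5.90 on the untreated arrays. Its change of 1.39 ± 0.60 (SE, limma adjusted p = 0.838) became 0.37 ± 0.38 without treated arrays 3 and 5. NDUFS7 read 5.87, 6.44, 8.52, 6.36 and 8.62 on the treated arrays, against 6.29, 5.55, 6.14, 5.74 and 6.45 on the untreated arrays. Its change was 1.13 ± 0.53, and 0.19 ± 0.26 without treated arrays 3 and 5.

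NDUFA6 and NDUFAF1 were also highest on treated arrays 3 and 5 of SK-MEL-28. NDUFA6 read 7.63 and 7.26 there, against 5.47 to 6.37 on the other 8 arrays, and NDUFAF1 read 7.75 and 6.95 there, against 5.23 to 6.48. Their changes were 0.54 ± 0.39 and 0.47 ± 0.45, and -0.10 and -0.18 without these arrays. SDHAF1, a factor for the iron-sulfur subunit of complex II and the 1 gene measured in this line alone, had 0.01 ± 0.21, and 0.090 without them.

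The lowest changes were those of ATP5MC3, NDUFS1 and NDUFV2. ATP5MC3 read 13.18, 12.96, 13.33 and 11.77 on treated arrays 2 to 5, against 13.74, 14.01, 12.96 and 13.50 on untreated arrays 1, 2, 4 and 5. The 14.01 on untreated array 2 is the maximum that all arrays of this line share after normalization. Treated array 1 and untreated array 3 had no value. The lowest array was treated array 5, and the change was -0.74 ± 0.38 (SE, limma adjusted p = 0.838). Without treated arrays 3 and 5 the gene was left with too few values to be tested. NDUFS1 had -0.55 ± 0.46 and NDUFV2 had -0.12 ± 0.66, and -0.081 and -0.63 without those arrays. COX7A2 read 12.08, 8.54, 11.68, 9.19 and 10.44 on the treated arrays, against 12.26, 7.92, 12.39, 9.66 and 9.23 on the untreated arrays. Both groups held high and low arrays, with arrays 1 and 3 the highest in each. The change was 0.09 ± 0.95 in the fit without pairs, which counts this shared difference as spread. ATP5F1B, with 0.07 ± 0.53, and NDUFS8, with 0.62 ± 0.88, also varied widely within both groups and were likewise highest on arrays 1 and 3 of each. Without treated arrays 3 and 5 the sign turned in all 3, to -0.36 for COX7A2, -0.16 for ATP5F1B and -0.14 for NDUFS8. The median within-group SD of the 12 genes was 0.959, against 0.430 over all probes.

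**Figure D5:**
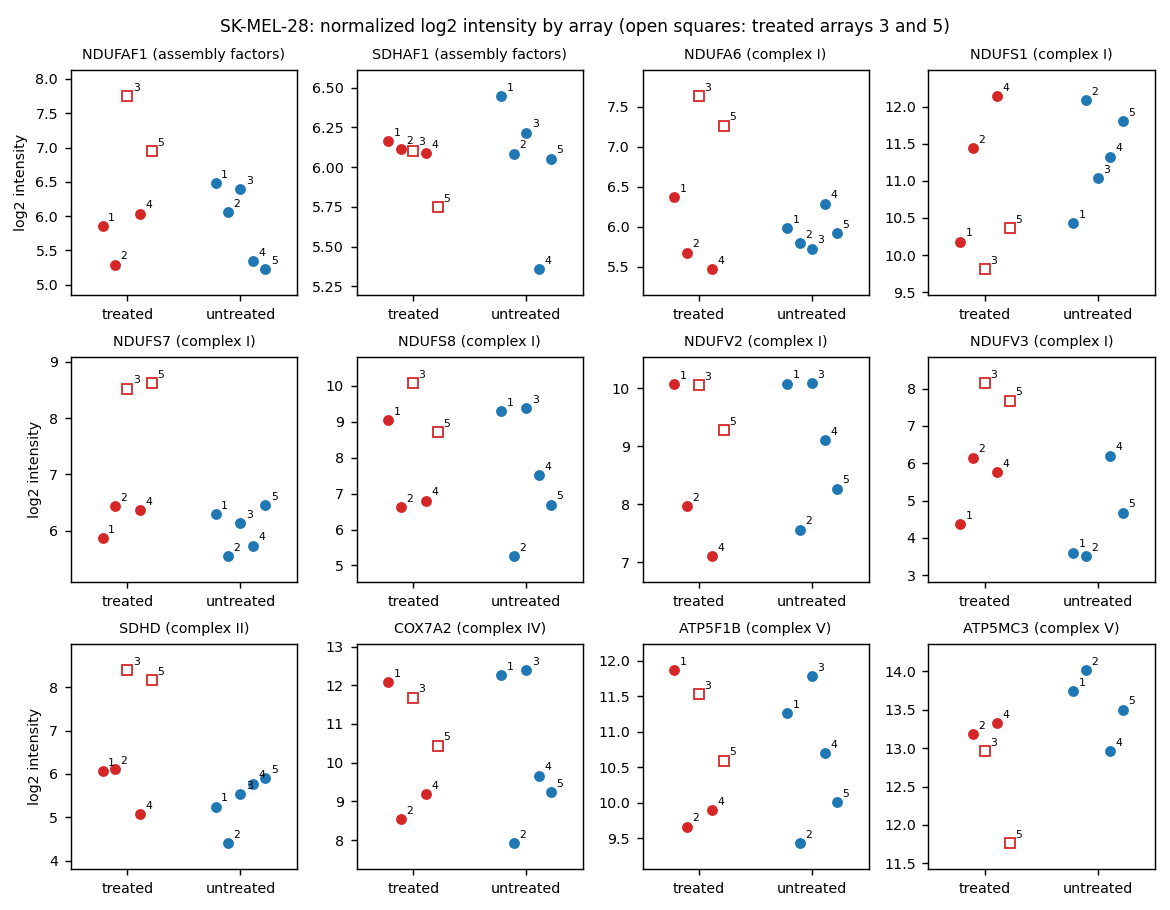
Normalized log2 intensity (y axis) of the 12 genes measured in SK-MEL-28 on each array, treated in red on the left and untreated in blue on the right, with array numbers and with treated arrays 3 and 5 as open squares. NDUFV3, SDHD, NDUFS7, NDUFA6 and NDUFAF1 were highest on treated arrays 3 and 5, where SDHD read 8.39 and 8.17.

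The lines were normalized apart, so levels of a gene in both are set side by side without a test. ATP5MC3 lay between 10.38 and 12.20 in Mia-PaCa-2, where its highest levels were on untreated arrays 4 and 5. In SK-MEL-28 it lay between 11.77 on treated array 5 and 14.01, the maximum that the arrays of that line share. SDHD lay between 4.41 and 6.11 on the other 8 SK-MEL-28 arrays, at 8.17 and 8.39 on treated arrays 3 and 5, and between 8.34 and 9.59 in Mia-PaCa-2. NDUFS7 lay between 5.55 and 6.45 on the other 8 SK-MEL-28 arrays, at 8.52 and 8.62 on treated arrays 3 and 5, and between 8.65 and 9.41 in Mia-PaCa-2. In SDHD and NDUFS7 treated arrays 3 and 5 of SK-MEL-28 lay near the low end of the Mia-PaCa-2 levels. Untreated arrays 4 and 5 of Mia-PaCa-2 lay at that end, with 8.36 and 8.34 for SDHD and 8.65 and 8.87 for NDUFS7. Treated array 1 of Mia-PaCa-2 also lay there for SDHD, with 8.35. The 3 genes were chosen after their values were seen.

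Whether the treatment effect differed between the lines was tested for the 11 genes measured in both, as Mia-PaCa-2 change minus SK-MEL-28 change. With limma over 5321 probes, 0 of 11 had an adjusted p under 0.05 (background 0.0%), and 0.873 was the smallest. Before adjustment 1 gene was lower at p under 0.05 (background 4.96% lower and 0.507% higher). This was NDUFV3, with a Mia-PaCa-2 change of 0.10, an SK-MEL-28 change of 1.92 and a difference of -1.82 ± 0.78 (SE, limma adjusted p = 0.873). Without the 4 arrays that stood apart the difference was -1.11. SDHD had a Mia-PaCa-2 change of 0.30 and an SK-MEL-28 change of 1.39, with a difference of -1.09 ± 0.63, and -0.32 without those arrays.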

How the data were processed

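RNA of 22 samples was read on 1-colour CodeLink arrays, and the titles gave each sample its group and number. Per the file headers, the authors deposited 1 intensity per probe on a linear scale for each array, and the sources used here do not give the background correction or filters. The table used for the results holds intensities that the authors deposited after normalization. How they did so is not stated, but all arrays of a line share 1 maximum and the ranks are those of the unnormalized intensities, as quantile normalization within a line gives.

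From these deposited intensities log2 values were computed, and each line was fitted alone in R 4.3.3 by lmFit and eBayes of limma 3.58.1, over probes valued on 3 or more arrays per group. P-values were adjusted by Benjamini-Hochberg over all probes tested, with a threshold of 0.05. Intervals are limma's 95% intervals. The number of arrays limits the precision. The difference between the lines was a contrast over all 22 arrays. The fit was also run on simulated data with independent noise for each probe and array. That run cannot show how the fit behaves with arrays that stand apart or share a pattern. Python 3.11.15, pandas 2.3.3, NumPy 2.4.6 and matplotlib 3.10.9 were used for tables, components and figures.

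Probes were named through the platform annotation, updated by Entrez identifier (8043 of 8051 single-symbol probes matched, and 0 symbols differed). A further 400 probes had several symbols, of which 16 held a symbol of these families and were not used, and 5806 were unnamed here. Where a gene had several probes, the one of highest mean level in that line stands for it. Genes were named by role (core and catalytic subunits) and by value (in each complex of Mia-PaCa-2 the 3 smallest p and the lowest and highest change, in SK-MEL-28 the 3 smallest p, the 3 lowest and the 3 highest). A few other genes were named after their values were seen, for their share on a component or their place in a promoter. The members, the lists, the marker genes and the tests were chosen with earlier results of these data known.

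In SK-MEL-28 treated and untreated arrays of the same number deviated together (r from 0.244 to 0.598 between deviations from the group means). Numbers 1, 2 and 5 correlated best with their own number, and 3 and 4 did not. The numbers were taken as pairs only in the fit with a block, from the data and not from a label. The SK-MEL-28 changes, standard errors and adjusted p-values given, and the contrast between the lines, are from fits without pairs. In Mia-PaCa-2 this r ran from -0.187 to 0.430. The fit with a block was run there only as an alternative, and changes are from fits without pairs unless a block is named. Alternatives were other normalizations of the unnormalized intensities, a filter on dim probes, array weights, a trended prior, the replicate number as a block, the other probe of a gene, and leaving out arrays. Promoters came from the RefSeq table of GRCh38.p14. The motif letters are short cores, chosen after longer forms had been searched. The longer NRF1 form had fewer matches, and the longer YY1 form had the same ATP5PF match but was rarer among all promoters.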

Additional observations from a re-analysis of the deposited data

Results flagged for a closer look

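In 8 genes, 1 treated Mia-PaCa-2 array lay far from the other 5 by Dixon's test, out of 98 genes and groups checked. Chance alone gives about 1 in 20. COX6B1 read 10.74 on treated array 2, against 10.92 to 10.95 on the other treated arrays, which is a small gap on a tight group. NDUFA6 read 9.39 on treated array 4, against 8.41 to 8.73, and it had the largest change of all members. NDUFAF8 read 7.77 on treated array 6, against 7.15 to 7.33, and SDHC read 6.62 on the same array, against 7.47 to 7.82. On treated array 1 NDUFC1 read 7.67, against 6.85 to 7.15, and NDUFS1 read 8.73, against 9.37 to 9.68. On treated array 3 COX4I1 read 9.20, against 8.33 to 8.56, and NDUFV1 read 7.29, against 6.29 to 6.65. No array held more than 2 of the 8. With each array left out in turn, the change of NDUFA6 ran from 0.57 to 0.86 and that of NDUFAF8 from 0.42 to 0.62.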

How the results depend on the processing

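No member had an adjusted p under 0.05 in limma under any setting run in either line or between lines. The number of Mia-PaCa-2 members at an unadjusted p under 0.05 was 5, but 0 without untreated arrays 4 and 5, with or without the replicate block. With 1 array left out it ran from 2 (without untreated array 4 or 5) to 12 (without untreated array 2), with 3 without treated array 1 and 8 without untreated array 1. In SK-MEL-28 this number was 2, but 1 without the dimmest 25% of probes, 0 with array weights, 0 without treated arrays 3 and 5, with or without the replicate block, and 0 to 3 with 1 array left out. It was 0 without treated array 3 or 5 or untreated array 1 or 2, and 1 without untreated array 3 or 5. With the replicate block alone 5 members of Mia-PaCa-2 and 3 of SK-MEL-28 had an unadjusted p under 0.05, NDUFS7 being added in SK-MEL-28, and the block changed no call at the adjusted threshold. In Mia-PaCa-2, where the block was run only as an alternative, 2 of 6 numbers correlated best with their own number. Leaving out 1 array in turn, the median over the members lay between 0.08 and 0.28 (Mia-PaCa-2) and between 0.03 and 0.65 (SK-MEL-28). By complex it ran from 0.09 to 0.27 (I), -0.07 to 0.19 (II), 0.20 to 0.41 (III), 0.01 to 0.27 (IV), 0.06 to 0.29 (V) and 0.06 to 0.24 (assembly factors). With array weights the Mia-PaCa-2 median over the members was 0.04. By complex it was then 0.07 (I), -0.10 (II), 0.15 (III), -0.01 (IV), 0.02 (V) and 0.06 (assembly factors). Of 35 results for single genes that were named by their values, 13 had another sign under at least 1 setting, and of 678 gene and setting pairs 49 had another sign and 0 passed the threshold. Without untreated arrays 4 and 5 and with that plus the replicate block, in this order, the Mia-PaCa-2 changes were 0.10 and 0.13 for ATP5MC3, -0.10 and -0.084 for CYC1, 0.081 and 0.071 for NDUFS1, -0.12 and -0.12 for NDUFS7, and -0.18 and -0.26 for NDUFV3, and SDHD was at -0.0087 with both changes made. With array weights they were -0.10 for CYC1, 0.18 for NDUFS1, -0.11 for NDUFS7 and -0.085 for NDUFV3. With the unnormalized intensities centred on the median NDUFV2 had 0.10. Without treated arrays 3 and 5 of SK-MEL-28, and with that plus the block, NDUFA6 had -0.10 and -0.18 and NDUFAF1 -0.18 and -0.24, and ATP5F1B had -0.16 without them. With 1 Mia-PaCa-2 array left out, CYC1 lay between -0.021 and 0.27, NDUFAF1 between -0.19 and 0.039, NDUFS1 between -0.26 and 0.081, NDUFS7 between -0.050 and 0.10, NDUFV2 between -0.28 and 0.21, NDUFV3 between -0.067 and 0.19, and SDHC between -0.35 and 0.014. With 1 SK-MEL-28 array left out, ATP5F1B lay between -0.23 and 0.36 and NDUFV2 between -0.49 and 0.32. None of these was past the threshold in any setting, and the causes were not tested. The arrays give signals with no background level, so dim and bright probes could not be separated by detection.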
